A study of Mus musculus with 22 samples.

Results

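The nuclear genes for the 5 complexes of oxidative phosphorylation were followed in the lungs of BALB/c mice. Members were taken by symbol: every gene beginning with Nduf, with Cox and a number from 4 to 8, with Uqcr or with Atp5, and the genes Sdha to Sdhd. The rule found 94 of the 20938 genes in the table, of which 92 passed a filter of at least 0.1 FPKM (fragments per kilobase of transcript, scaled to library depth) in at least 3 of 22 libraries. Cox7b2 and Cox8c, both known from testis, did not pass. By complex there were 45 members of complex I, 4 of complex II, 8 of complex III, 20 of complex IV and 17 of complex V. Symbols catch some genes that are no subunits: Ndufaf1 to Ndufaf8 and Cox7a2l help to assemble complexes or supercomplexes, and GENCODE lists Ndufb4c as a processed pseudogene. Ndufa4, named for complex I, is counted with complex IV, where its protein is now placed, together with its paralogue Ndufa4l2.

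All mice were injected intraperitoneally to sensitize them at 49 days of age and again at 63 days, PBS controls included as the treatment text has it, and received aerosols from 70 days; the labels do not name the sensitizing agent. The aerosol was ovalbumin (OVA), the egg-white protein used as an allergen, methacholine (MCh), a muscarinic agonist that constricts airways, or phosphate-buffered saline (PBS). The short protocol gave it on 3 consecutive days, and the long protocol 3 times a week for 4 weeks. Each protocol had 4 OVA, 4 MCh and 3 PBS libraries, labelled as biological replicates; p-values measure the spread between these libraries.

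The respiratory chain passes electrons from NADH through complex I, or from succinate through complex II, to ubiquinone, then through complex III and cytochrome c to complex IV, which reduces oxygen. Complexes I, III and IV pump protons, and complex V, the ATP synthase, uses the gradient. Membrane-arm subunits of complex I, cytochrome b of complex III, the catalytic core of complex IV and part of the membrane sector of complex V are encoded by mitochondrial DNA; these genes were not analysed here. In lung, alveolar type 2 cells, which make surfactant, are rich in mitochondria, while endothelial cells draw much of their ATP from glycolysis.

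Library quality and transcript length bear on every value below. The libraries held 15.1 to 25.2 fragments for a transcript of 1 kilobase at 1 FPKM, as implied by the smallest steps in the values. Genes at 0 made up 22.5% to 25.3% of the table, except in long MCh libraries a and c (34.3% and 33.8%) and short MCh library 1 (28.3%). Member transcripts are short, with a median of 745 bases against 2850 for all tested genes, and 75 of the 91 tested members with a length lay among the 20% of tested genes with the shortest transcripts, called short genes here. In each library the deviation of every gene from its mean over all libraries was set against transcript length, and Spearman's rho ran from -0.473 to -0.392 in short OVA, from 0.262 to 0.361 in long OVA, from -0.0293 to 0.270 in short PBS and from 0.359 to 0.409 in long PBS lungs. Short transcripts thus stood higher in short OVA libraries across the whole table. Short MCh library 4 had the lowest rho of all, -0.643. The count of called members in short OVA lungs is therefore given as deposited and after subtracting each library's smoothed trend with length. The members' median in every comparison is given in the same ways. Values of individual genes, and counts for other gene lists, are as deposited unless the text states that the trend was removed. How far length accounts for a member's change was not tested.

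The members together made up 1.60% to 1.84% of all FPKM in short OVA lungs, against 1.04% to 1.21% in short PBS lungs. In the long protocol the share was 1.07% to 1.14% in OVA and 1.04% to 1.07% in PBS lungs. Short MCh library 4, at 1.82%, matched the OVA libraries, while the other 3 short MCh libraries held 1.12% to 1.27%. The median log2 deviation of the members from their mean over all libraries was 0.76, 0.54, 0.52 and 0.50 in the short OVA libraries and 0.02, -0.09 and -0.28 in the short PBS libraries. With the length trend removed these medians were 0.35, 0.31, 0.23 and 0.24 in short OVA and 0.00, -0.05 and -0.15 in short PBS lungs. The groups did not overlap on either scale, and the distance between them was smaller after removal. Bulk RNA cannot tell more RNA per cell from more cells that are rich in these transcripts.

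**Figure D1:**
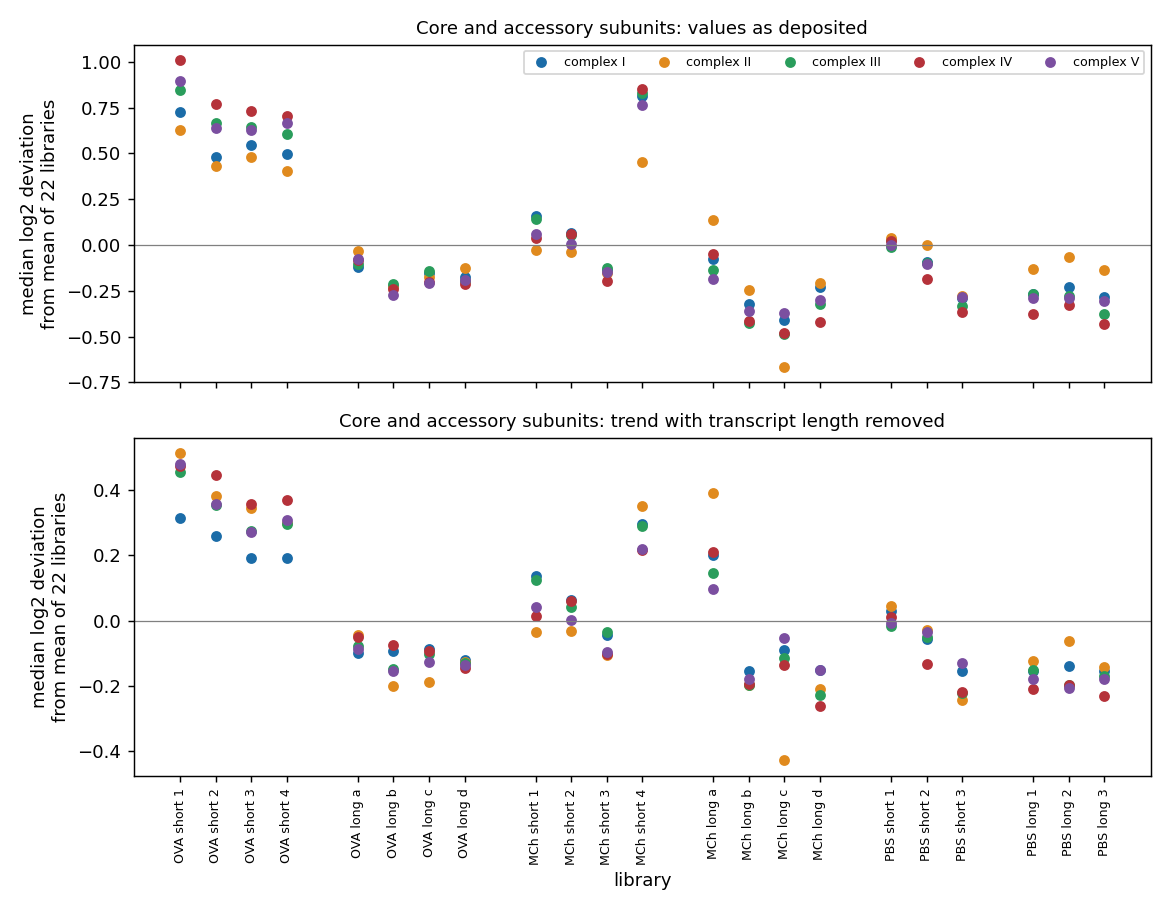
Median log2 deviation of the core and accessory subunits of each complex from their mean over 22 libraries (y axis), by library (x axis), for values as deposited (upper panel) and with each library's length trend removed (lower panel); colours are complexes. The 4 short OVA libraries and short MCh library 4 lie above the other libraries as deposited, and all 5 complexes move together in them.

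After the short protocol 64 of the 92 tested members rose in OVA against PBS lungs and 1 fell (limma, Benjamini-Hochberg adjusted p under 0.05 over all 15682 tested genes; n = 4 and 3). Values after ± are standard errors of log2 fold changes unless marked SD. Of all tested genes 12.4% rose and 11.7% fell, and of the short genes 25.8% rose and 2.42% fell. The median log2 fold change was 0.69 over the members, -0.06 over all tested genes and 0.27 over the short genes. In 79 members every OVA library lay above every PBS library, against 23.2% of all genes, and in 1 member every OVA library lay below, against 29.2%. With the length trend removed 36 of 91 members rose and 2 fell, against 12.1% and 9.36% of genes, or 14.2% and 8.47% of the short genes, and the members' median was 0.36. The count moved with the length used: with the median length of each gene's coding models in GENCODE in place of the length of its most abundant matched transcript, 53 of 89 members rose and 1 fell, with a median of 0.53. That choice was made after seeing the data, and by it 12.7% of genes rose and 10.02% fell. Without short PBS library 3 the number of members called was 39, the lowest of any left-out library. With short OVA and PBS libraries alone and the trend removed, 59 of 91 members rose and 3 fell, against 22.5% and 20.4% of all genes and 25.0% and 19.7% of the short genes.

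In complex V every member was called. All 17 of its members rose, with a median of 0.87, and 11 rose with the length trend removed (median 0.45). Atp5b (chr10:128083273-128090391; positions are GENCODE on mm10) encodes the catalytic beta subunit of the F1 head. Its level was 318, 292, 277 and 293 FPKM in short OVA libraries, against 227, 227 and 198 FPKM in short PBS libraries. No OVA library overlapped a PBS library, and the log2 fold change was 0.44 ± 0.09 (adjusted p = 0.00115; 0.36 ± 0.07 with the trend removed). Its partner Atp5a1, the alpha subunit, changed by 0.34 ± 0.10 (adjusted p = 0.0220), and the rotor subunit gene Atp5c1 by 0.72 ± 0.15 (adjusted p = 0.00200). The 12 accessory subunits had a median of 0.94 and the 5 subunits of the F1 head one of 0.50. Among the accessory subunits Atp5mpl, whose product is a small proteolipid of the synthase, had 74.3, 58.8, 54.2 and 61.1 FPKM in short OVA lungs, against 31.9, 31.5 and 22.7 FPKM in short PBS lungs, a log2 difference of 1.11 ± 0.18 (adjusted p = 2.44e-04). Atp5mpl has a transcript of 366 bases, and with the trend removed its value was 0.54 ± 0.10 (adjusted p = 4.17e-04).

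Atp5k, the e subunit at the dimer interface, rose by 1.05 ± 0.22 (adjusted p = 0.00196), and Atp5e, the epsilon subunit of the central stalk, by 0.92 ± 0.21 (adjusted p = 0.00300). Both have transcripts of under 600 bases, and neither was called with the trend removed (0.48 ± 0.19 for Atp5k and 0.38 ± 0.15 for Atp5e). Atp5g1, one of 3 genes for the same c-ring protein, had 15.3, 13, 13.1 and 14.7 FPKM in short OVA libraries, against 6.93, 7.93 and 5.91 FPKM in short PBS libraries. The change of Atp5g1 was 0.97 ± 0.17 (adjusted p = 3.96e-04). Its trend-removed value of 1.22 ± 0.24 rests on a model of 4715 bases, which held 51.5% ± 12.3 of the gene's FPKM in OVA and 43.3% ± 6.14 in PBS lungs (SD); the rest came from a model of 596 bases.

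In complex III 7 of 8 members rose, with a median of 0.83, and 6 rose with the trend removed (median 0.42). Uqcrq (chr11:53427922-53430831), a small subunit named for ubiquinone binding, had the largest fold change of any member in this comparison. Its level was 84.4, 81.9, 78.6 and 77.0 FPKM in short OVA libraries, against 35.6, 37.4 and 31.7 FPKM in short PBS libraries. Every OVA value was more than 2 times every PBS value, and the log2 fold change was 1.20 ± 0.19 (adjusted p = 1.23e-04; 1.02 ± 0.15 with the trend removed). The hinge protein Uqcrh rose by 0.87 ± 0.18, the small subunit Uqcr11 by 1.01 ± 0.18 and the iron-sulfur protein Uqcrfs1, the electron carrier among these members, by 0.67 ± 0.16. The 2 large subunits Uqcrc1 and Uqcrc2, counted here as accessory, gave different calls, and the difference between them was not tested. Uqcrc2 rose by 0.47 ± 0.11 (adjusted p = 0.00413). Uqcrc1 was at 67.6, 58.4, 60.0 and 66.1 FPKM in short OVA and 56.7, 60.0 and 56.3 FPKM in short PBS lungs. The Uqcrc1 ranges overlap, and its difference was 0.13 ± 0.12 (adjusted p = 0.503), or -0.01 ± 0.13 with the trend removed.

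Complex IV held large rises and the 1 member that fell. Of its 18 tested members 10 rose and 1 fell. Among the 11 subunits that are not tissue isoforms or assembly factors, 10 rose, with a median of 0.97 (0.50 with the trend removed, where 7 rose). Cox5a (chr9:57521274-57532426), a subunit on the matrix side, had 164, 138, 129 and 131 FPKM in short OVA libraries, against 73.3, 67.6 and 61.7 FPKM in short PBS libraries. The lowest OVA value was well above the highest PBS value, with a log2 fold change of 1.05 ± 0.15 (adjusted p = 4.54e-05; 0.60 ± 0.12 with the trend removed). Cox7b, a small transmembrane subunit, rose by 1.14 ± 0.17 (adjusted p = 7.97e-05), Cox7a2, the widely expressed form of subunit VIIa, by 1.03 ± 0.21, and Ndufa4 by 0.93 ± 0.18. Cox8a, the widely expressed form of subunit VIII, rose by 0.95 ± 0.30 (adjusted p = 0.0242) but was not called with the trend removed (0.47 ± 0.22). Cox4i1, the widely expressed form of subunit IV, rose by 0.46 ± 0.15 (adjusted p = 0.0258), and with the trend removed its value was 0.05 ± 0.07. Cox6a1 had a difference of 0.59 ± 0.22 and Cox7a2l, a supercomplex assembly factor, of 0.24 ± 0.20; neither was called (adjusted p = 0.0541 and 0.401).

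Complex II, the only one with no mitochondrially encoded subunit, had some members called and others not. Differences between its members were not tested. Sdhd and Sdhb, the membrane anchor and the iron-sulfur subunit, rose by 0.88 ± 0.21 and 0.71 ± 0.20 (adjusted p = 0.00501 and 0.0129). Sdha (chr13:74322254-74350280), the flavoprotein that oxidizes succinate, was at 71.9, 71.4, 69.0 and 70.0 FPKM in short OVA libraries, against 68.5, 70.8 and 65.6 FPKM in short PBS libraries. The ranges overlap, and its difference of 0.05 ± 0.07 (adjusted p = 0.678) was the smallest of any tested member in this comparison. Sdhc, the other anchor, had a difference of 0.44 ± 0.18 that was not called (adjusted p = 0.0796). Sdha and Sdhc have transcripts of 2900 and 3171 bases, those of Sdhb and Sdhd 1142 and 1231 bases. With the trend removed Sdhd alone was called, at 0.63 ± 0.17.

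In complex I 28 of 45 members rose, with a median of 0.63, and 11 of 44 rose with the trend removed (median 0.28). Both medians include assembly factors, while those given for complex IV leave out assembly factors and tissue isoforms. Of its 29 accessory subunits, the pseudogene Ndufb4c left out, 23 rose, with a median of 0.68, against 3 of its 7 nuclear-encoded core subunits, with a median of 0.31; the difference between these classes was not tested. Ndufb5, an accessory subunit of the membrane arm, had 189, 166, 158 and 159 FPKM in short OVA libraries, against 98.3, 86.3 and 74.8 FPKM in short PBS libraries. That was a log2 fold change of 0.96 ± 0.19 (adjusted p = 9.59e-04), and 0.66 ± 0.14 with the trend removed. Ndufa2, an accessory subunit of the matrix arm, rose by 0.97 ± 0.20 (adjusted p = 0.00159). The core subunits Ndufv1 and Ndufs1, on the electron path from NADH, were not called. Ndufv1, which binds NADH and FMN, was at 45.7, 48.7, 42.0 and 45.7 FPKM in short OVA and 43.0, 42.2 and 38.1 FPKM in short PBS lungs, and Ndufs1, with iron-sulfur clusters, at 106, 93.4, 99.3 and 87.1 FPKM in short OVA and 79.4, 92.4 and 75.8 FPKM in short PBS lungs. Their differences were 0.15 ± 0.09 for Ndufv1 and 0.22 ± 0.14 for Ndufs1, neither called (adjusted p = 0.286 and 0.257). Of the 8 complex I assembly factors 2 rose, Ndufaf4 and Ndufaf5, both chosen for mention after their values were seen.

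**Figure D2:**
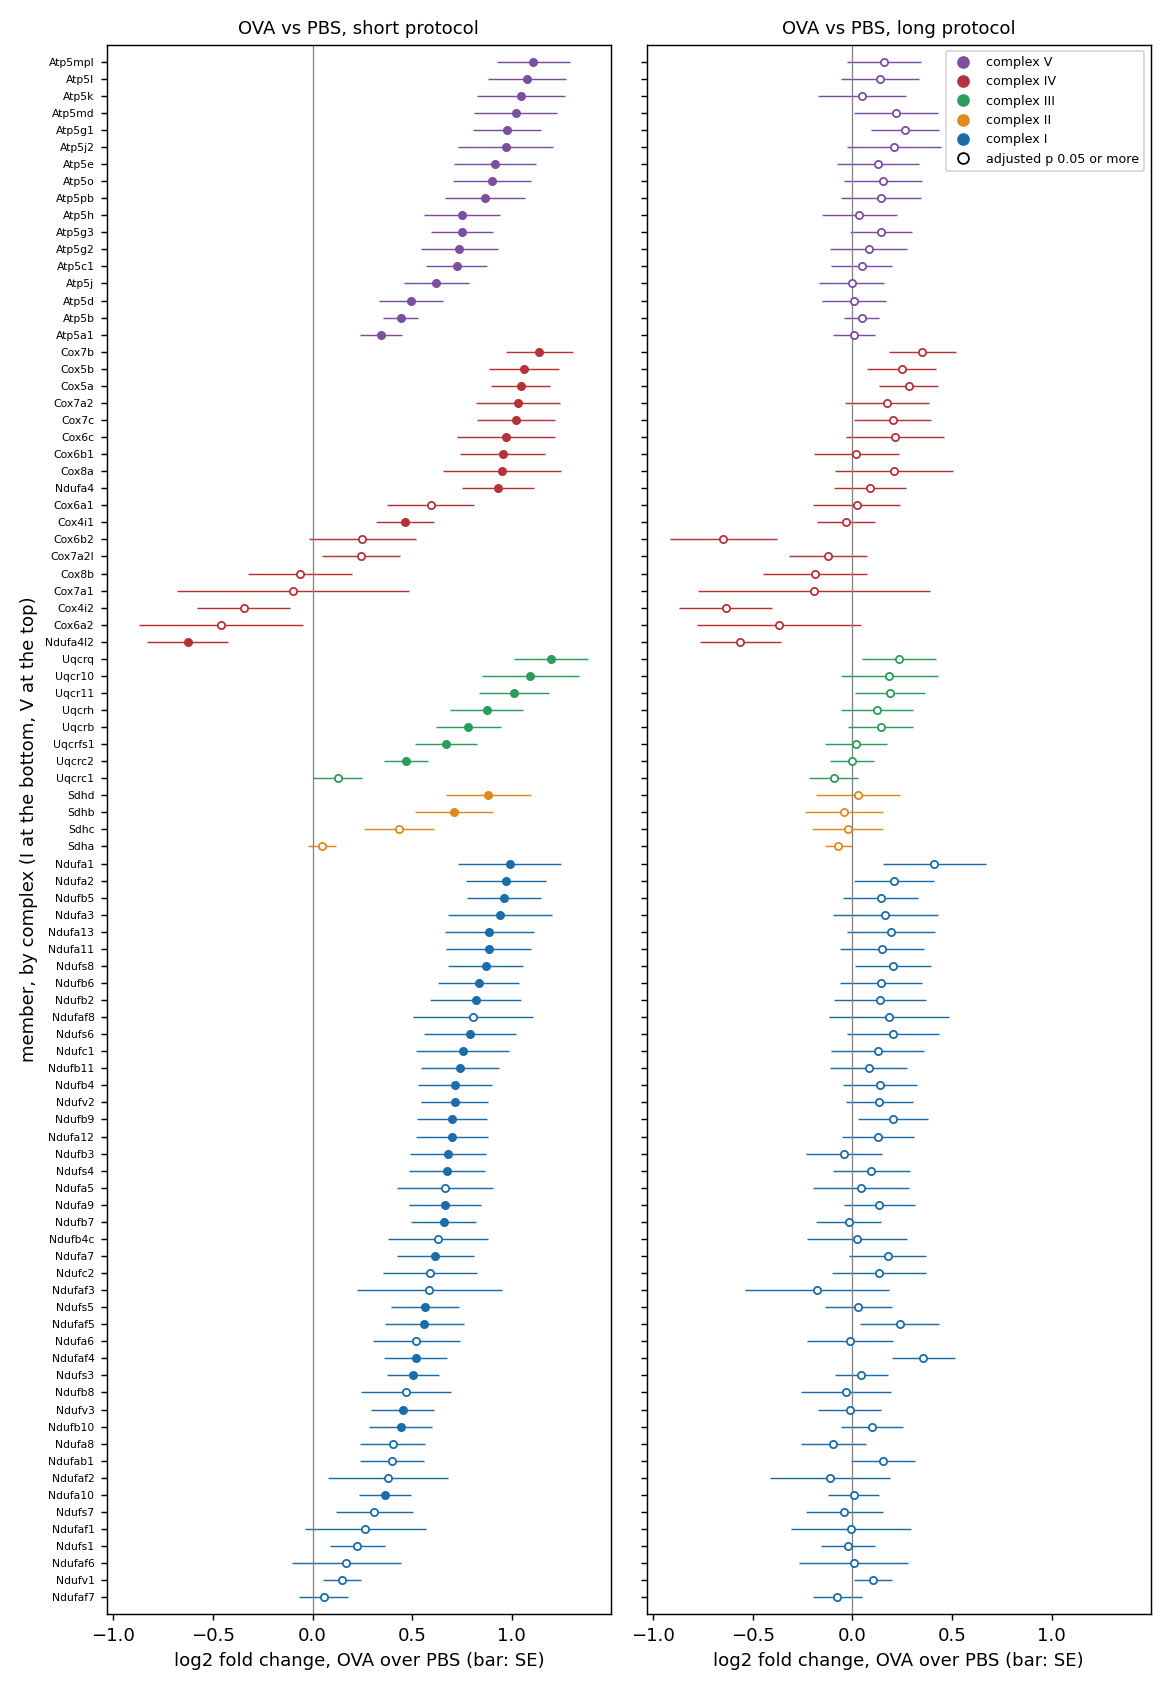
Log2 fold change with its SE (x axis) of 91 of the 92 tested members (y axis, by complex), OVA over PBS in the short protocol (left) and the long protocol (right); filled points passed an adjusted p of 0.05. In the short protocol most points are filled and to the right of 0, with Ndufa4l2 filled on the left; in the long protocol none is filled.

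Across the 91 members with a length, the short-protocol fold change was lower for longer transcripts, with a Spearman rho of -0.387, and after removal of the trend rho was 0.122. These are descriptions over genes that share libraries. Among 28 members of up to 600 bases 23 rose as deposited (median 0.88) and 9 with the trend removed (median 0.38). Among 31 members of over 600 and up to 1000 bases 21 rose and 11 with the trend removed, with medians of 0.70 and 0.30. Among 32 longer members 20 rose as deposited and 16 with the trend removed, with medians of 0.51 and 0.42. Short members thus lost most calls, and the 3 length classes had closer medians once the trend was removed.

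**Figure D3:**
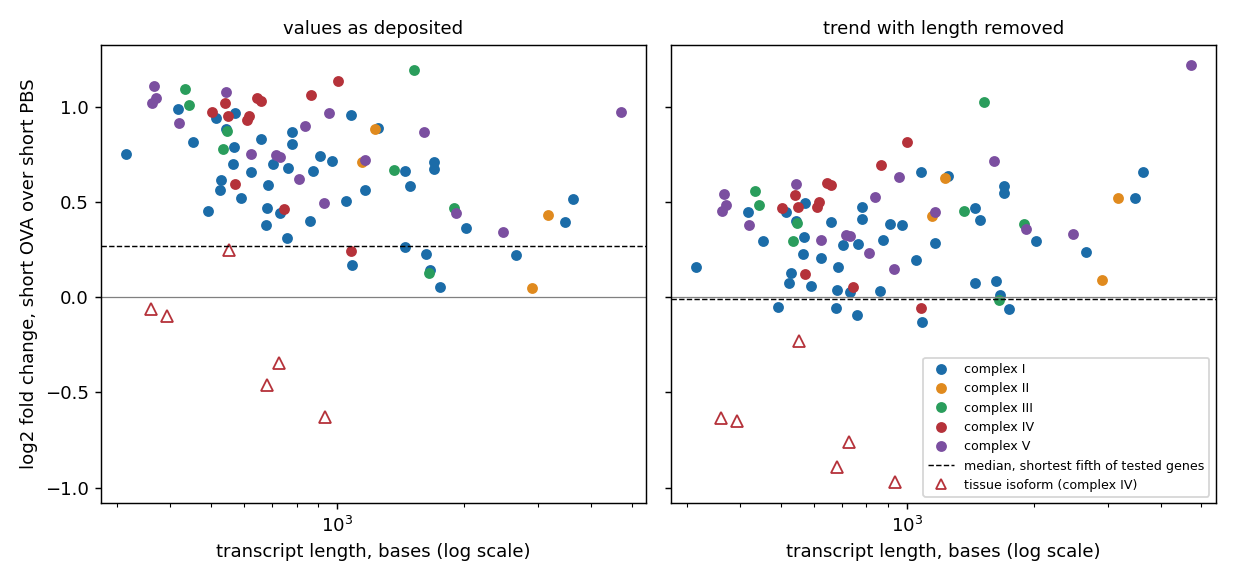
Log2 fold change, short OVA over short PBS (y axis), of 91 members against transcript length (x axis, log scale), as deposited (left) and with the length trend removed (right); colours are complexes, triangles tissue isoforms of complex IV, and the dashed line is the median of the short genes. Most members lie above that line in both panels and the tissue isoforms lie below it.

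Subunits of complex IV exist as widely expressed and as tissue-restricted forms. Of 6 tested tissue isoforms none rose and 1 fell, against 12.4% and 11.7% of all genes, or 25.8% and 2.42% of the short genes. Their median was -0.22 (-0.71 with the trend removed, where 2 fell, against 9.36% of all genes). With so few genes, a difference of these counts from the whole table was not tested. Cox6b2, chosen after its values were seen, averaged 21.2 FPKM in short OVA and 18.1 FPKM in short PBS lungs. Ndufa4l2 (chr10:127514967-127517154), a paralogue of Ndufa4 known to be induced by hypoxia, was the member that fell. Its level was 15.8, 15.7, 16.3 and 17.7 FPKM in short OVA libraries, against 28.3, 19.6 and 29.8 FPKM in short PBS libraries. All OVA values lay below all PBS values, with a log2 fold change of -0.63 ± 0.20 (adjusted p = 0.0312). Over 22 alternative settings Ndufa4l2 stayed negative and was called in 15, with an adjusted p from 1.60e-04 to 0.154; leaving out short PBS library 3 gave the highest, at a log2 of -0.52. With the length trend removed the change was -0.97 ± 0.20 (adjusted p = 0.00136). Cox4i2 (chr2:152754173-152765037), the form of subunit IV that is typical of lung, was at 46.0, 45.6, 39.3 and 41.6 FPKM in short OVA and 58.1, 42.0 and 67.3 FPKM in short PBS lungs. Its ranges overlap, its difference of -0.35 ± 0.23 was not called (adjusted p = 0.308), and it was called at -0.76 ± 0.19 with the trend removed (adjusted p = 0.00649; range over 22 settings 0.00649 to 0.681).

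The ratio of each of these 2 to its widely expressed partner was compared directly; transcripts are 727 and 745 bases for Cox4i2 and Cox4i1, and 934 and 610 bases for Ndufa4l2 and Ndufa4. Cox4i2 amounted to 11.7%, 14.0%, 11.6% and 11.9% of Cox4i1 in short OVA libraries, against 22.2%, 16.4% and 27.6% in short PBS libraries. In the long protocol the share was 12.1%, 17.0%, 11.6% and 13.7% in OVA and 21.4%, 22.5% and 18.0% in PBS lungs. OVA and PBS groups did not overlap in either protocol, with log2 differences of -0.81 and -0.61 in the short and long protocols. Ndufa4l2 amounted to 3.37%, 3.99%, 3.96% and 4.84% of Ndufa4 in short OVA libraries, against 11.5%, 8.65% and 17.0% in short PBS libraries. In the long protocol it was 5.61%, 11.1%, 8.35% and 8.15% in OVA and 12.6%, 13.4% and 12.4% in PBS lungs. These groups did not overlap either, and the log2 differences were -1.57 and -0.67. Each of the 4 OVA comparisons had an exact two-sided permutation p of 0.0571, the smallest that 4 against 3 libraries allow, and 0.114 after Benjamini-Hochberg adjustment over the 8 ratios tested. In MCh lungs the Cox4i2 share had geometric means of 21.0% in the short and 20.3% in the long protocol, against 21.6% and 20.5% in PBS lungs (exact p = 0.800 and 0.914). The Ndufa4l2 share was 8.20% and 12.4% in MCh, against 11.9% and 12.8% in PBS lungs (exact p = 0.114 and 0.857).

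**Figure D4:**
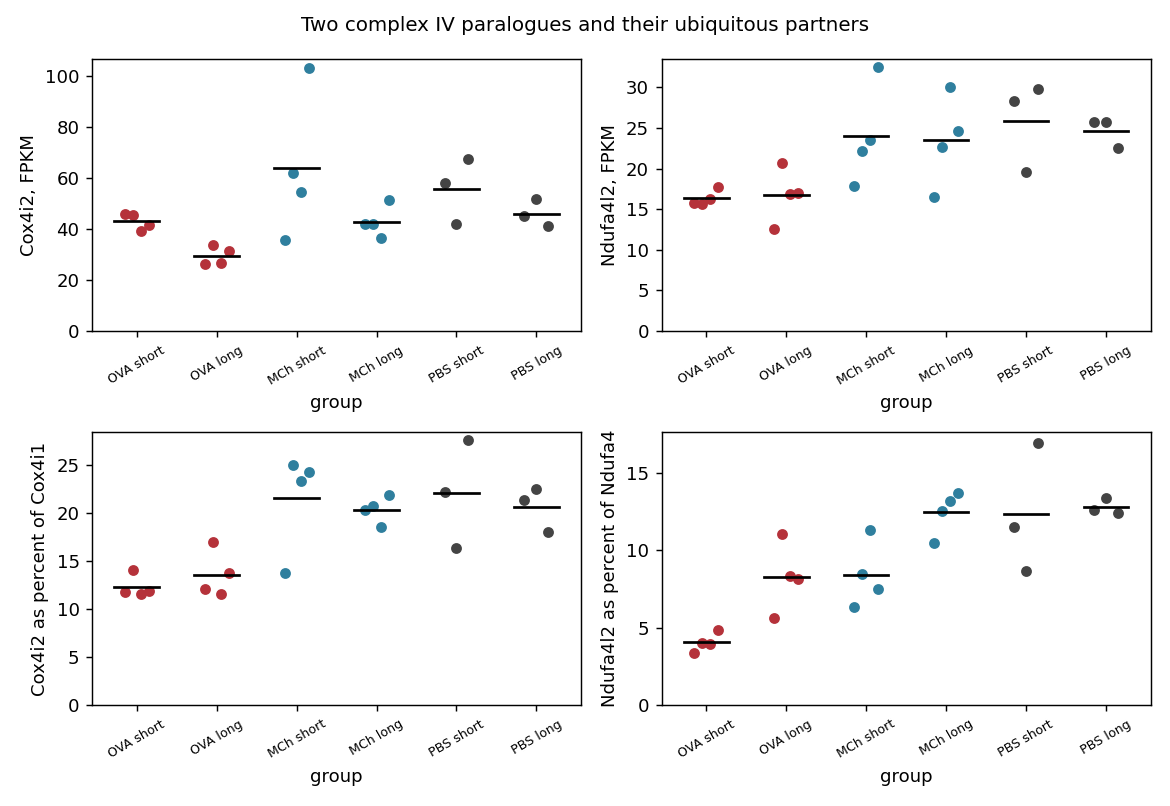
FPKM of Cox4i2 and Ndufa4l2 (upper panels) and each as a percent of its widely expressed partner (lower panels) in every library, by group (x axis); short lines are group means. In both protocols the OVA libraries lie below the PBS libraries in the lower panels.

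Markers of other cells moved in the same libraries. In short OVA against short PBS lungs 12.4% of all tested genes rose and 11.7% fell, and of the short genes 25.8% rose and 2.42% fell. Marker calls and sums here are on the values as deposited alone, on which short transcripts stood higher in short OVA libraries. How far length accounts for a marker's change was not tested. Of 5 endothelial markers 4 fell in short OVA lungs, with a summed level of 944 to 1178 FPKM in OVA against 1331 to 1637 FPKM in PBS lungs. Of 7 pericyte and smooth muscle markers 3 rose (Acta2, Tagln, Rgs5) and 2 fell (Pdgfrb at -0.97 ± 0.22 and Notch3 at -1.54 ± 0.30), with sums of 502 to 603 FPKM in OVA and 333 to 359 FPKM in PBS lungs. Macrophage markers summed to 4788 to 7114 FPKM in short OVA and 238 to 289 FPKM in short PBS lungs, with 4 of 5 higher; Chil3 alone averaged 5834 FPKM in OVA and 196 FPKM in PBS lungs. Alveolar type 1 markers summed to 1713 to 2113 FPKM in OVA and 2283 to 2788 FPKM in PBS lungs, with 5 of 8 lower. Alveolar type 2 markers, which mark the tissue as lung, summed to 19211 to 20814 FPKM in OVA and 13825 to 15740 FPKM in PBS lungs, with 3 of 7 higher and 2 lower. No gene of the endothelial, pericyte and smooth muscle, macrophage or alveolar lists was at 0 on average in either group. Of 5 eosinophil markers 4 rose, with sums of 11.3 to 23.6 FPKM in OVA and 6.28 to 7.64 FPKM in PBS lungs. Of 3 club cell markers 2 fell (sums of 34502 to 46626 FPKM in OVA and 41780.4 to 49877 FPKM in PBS lungs). None of 5 ciliated or 4 neutrophil markers was called. Of 3 tested brown fat markers 1 fell, and none of 11 cardiac or 4 tested skeletal muscle markers was called. Testis markers summed to 0 to 0.281 FPKM in OVA and 0 FPKM in PBS lungs. The part of these lists in the members' changes was not tested.

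Muscle isoforms followed another pattern. Cox6a2, Cox7a1 and Cox8b encode the heart and skeletal muscle forms of subunits VIa, VIIa and VIII. Cox6a2 was at 29.8, 15.5, 18.0 and 23.6 FPKM in short OVA and 38.3, 37.6 and 17.1 FPKM in short PBS lungs, Cox7a1 at 6.52, 2.81, 4.23 and 2.63 FPKM in short OVA and 5.41, 4.41 and 2.88 FPKM in short PBS lungs. Both overlapped between groups and neither was called (adjusted p = 0.455 and 0.929); nor was Cox8b, at 0.175 to 0.963 FPKM in short OVA and 0.176 to 0.746 FPKM in short PBS lungs. Across the 22 libraries their Spearman rho with the summed level of 11 cardiac muscle markers was 0.763 for Cox6a2, 0.747 for Cox7a1 and 0.776 for Cox8b; points share libraries and depth, and rho is given as a description. That sum was 65.7 to 289 FPKM in short OVA and 145 to 606 FPKM in short PBS lungs. Long MCh library a, with many genes at 0, had Cox7a1 listed at 0 and the highest Cox6a2 of all, 48.2 FPKM.

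**Figure D5:**
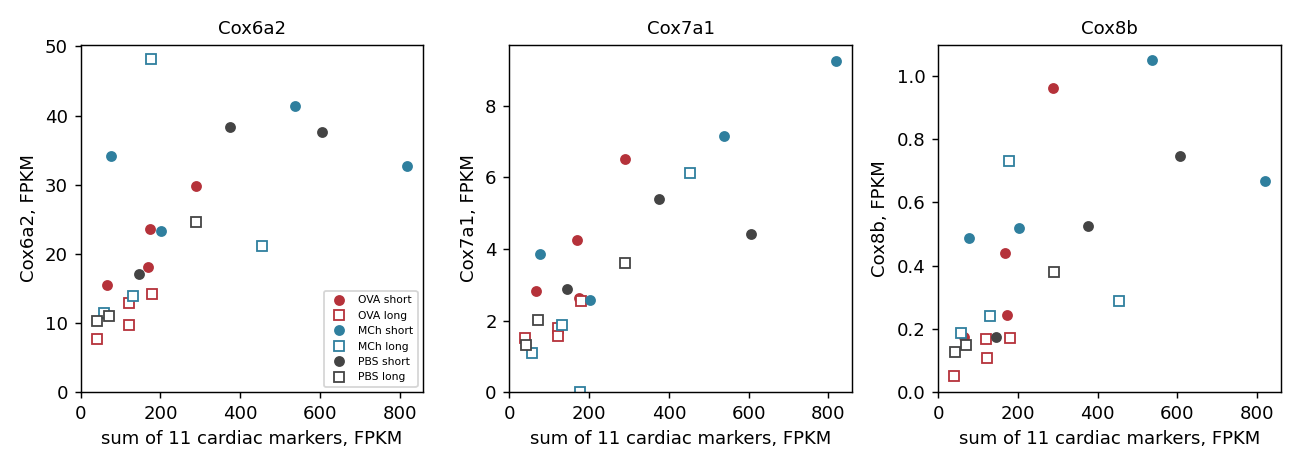
FPKM of Cox6a2, Cox7a1 and Cox8b (y axes) against the summed FPKM of 11 cardiac muscle markers (x axes) in 22 libraries; colours are aerosols, filled circles the short and open squares the long protocol. All 3 isoforms tend to be higher in libraries with more cardiac marker RNA (rho 0.747 to 0.776), and long MCh library a stands off the trend.

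Genes around the respiratory chain, on lists chosen with earlier results known, were counted in the same comparison (short OVA over short PBS). Of all tested genes 12.4% rose and 11.7% fell there, and of the short genes 25.8% rose and 2.42% fell. With the trend removed 12.1% of all genes and 14.2% of the short genes rose. Whether any list differed from these shares was not tested. Of 37 assembly factors and carriers outside the symbol rule 7 rose and none fell, with a median log2 fold change of 0.28; cytochrome c, Cycs, rose by 1.12 ± 0.17 and cytochrome c1, Cyc1, by 0.52 ± 0.10. Atpif1, an inhibitor of the ATP synthase, rose by 0.90 ± 0.19. Of 78 mitochondrial ribosomal proteins 29 rose and none fell (median 0.46), and 19 rose with the trend removed. Of 13 citrate cycle genes 5 rose and none fell (median 0.32), among them Mdh2 by 0.65 ± 0.15. Of 15 glycolysis genes 8 rose and none fell (median 0.43), led by Hk3, a hexokinase of myeloid cells, at 2.19 ± 0.26, with Ldha at 0.98 ± 0.13. Of 10 outer membrane and carrier genes 5 rose (median 0.37), including the ADP/ATP carrier Slc25a5 at 0.87 ± 0.14. Of 12 regulators of mitochondrial biogenesis none rose and 1 fell, Yy1 at -0.51 ± 0.11, which was not called with the trend removed (-0.14, adjusted p = 0.385).

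Nuclear respiratory factor 1 (NRF1), ETS proteins such as GABP and Yin Yang 1 (YY1) are known regulators of respiratory chain genes. Their motifs GCGCATGC (NRF1), CCGGAAG (ETS) and AAGATGGC (YY1) were searched on both strands in RefSeq promoters (GRCm38.p6, 250 bases before to 50 after the start). Promoters were found for 75 of the 92 tested members. A gene was counted with a motif where any of its promoters in the table held it, so genes with more promoters had more sequence searched. The NRF1 motif was found for 12 of these 75 members (16%), against 3.05% of the 27025 genes in the promoter table. It was found for 8 of the 55 members that rose in short OVA lungs and 4 of the 20 that were not called. The ETS motif was found for 19 of these 75 members (25.3%), against 9.93% of the 27025 genes in the promoter table. It was found for 16 of the 55 members that rose in short OVA lungs and 3 of the 20 that were not called. The YY1 motif was found for 11 of these 75 members (14.7%), against 3.19% of the 27025 genes in the promoter table. It was found for 8 of the 55 members that rose in short OVA lungs and 3 of the 20 that were not called. The NRF1 letters overlap their own reverse complement, and no other pair of these motifs shares letters in the printed promoters. A match describes letters and not binding. Promoters with 2 of the 3 motifs were found for 7 members: Atp5j, Atp5k, Atp5l, Cox6a1, Ndufaf8, Sdhb and Uqcr11. To show how the motifs sit, 3 of them, chosen after the search, are printed 5′ to 3′ on the gene's strand, with motifs or their reverse complements in capitals: those of Atp5k and Atp5j, a coupling factor of complex V, both of which rose, and of Cox6a1, which was not called. The other Atp5j promoter in the table (chr16:84835576-84835875) holds none of the motifs and is not printed.
Atp5k, chr5:108434350-108434649, minus strand: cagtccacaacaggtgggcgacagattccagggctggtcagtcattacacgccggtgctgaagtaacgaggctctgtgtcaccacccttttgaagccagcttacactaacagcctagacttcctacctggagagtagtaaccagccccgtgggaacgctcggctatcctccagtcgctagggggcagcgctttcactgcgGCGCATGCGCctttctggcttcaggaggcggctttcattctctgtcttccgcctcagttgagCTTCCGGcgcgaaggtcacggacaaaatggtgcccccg
Atp5j, chr16:84834927-84835226, minus strand: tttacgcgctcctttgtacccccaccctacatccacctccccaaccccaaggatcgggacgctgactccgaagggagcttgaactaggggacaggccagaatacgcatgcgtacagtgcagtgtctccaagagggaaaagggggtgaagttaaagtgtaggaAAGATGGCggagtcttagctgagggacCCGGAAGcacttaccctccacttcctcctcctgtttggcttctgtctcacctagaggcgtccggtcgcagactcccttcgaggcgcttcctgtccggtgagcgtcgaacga
Cox6a1, chr5:115348909-115349208, minus strand: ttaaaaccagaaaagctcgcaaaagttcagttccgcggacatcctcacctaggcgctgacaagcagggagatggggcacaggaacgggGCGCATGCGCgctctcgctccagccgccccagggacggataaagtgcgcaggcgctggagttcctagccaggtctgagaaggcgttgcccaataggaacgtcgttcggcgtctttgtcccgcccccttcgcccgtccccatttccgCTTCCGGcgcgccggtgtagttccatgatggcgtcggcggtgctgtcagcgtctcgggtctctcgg

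After the long protocol no member was called in OVA against PBS lungs by limma, while 1.03% of all genes rose and 0.153% fell. Without adjustment 1 member was higher and 3 were lower at a p under 0.05, against 4.59% and 2.83% of all genes, and the median log2 fold change of the members was 0.09 (0.04 with the trend removed). In 17 members every OVA library lay above every PBS library and in 4 below, against 9.95% and 13.2% of all genes. Cox7b had 169.8, 152, 156 and 161 FPKM in long OVA libraries, against 127, 129 and 119 FPKM in long PBS libraries. Its groups did not overlap, and its log2 fold change was 0.35 ± 0.17 (adjusted p = 0.684). Cox4i2 had 26.1, 33.8, 26.6 and 31.5 FPKM in long OVA libraries, against 45.0, 51.8 and 41.4 FPKM in long PBS libraries, with a difference of -0.64 ± 0.23 (adjusted p = 0.345). Ndufa4l2 differed by -0.56 ± 0.20 (adjusted p = 0.336). With the spread estimated from the OVA and PBS long libraries alone 3 members were called, Cox7b and Cox6c as higher and Cox4i2 as lower, against 3.75% and 2.77% of all genes; Cox6c was chosen after its values were seen. Macrophage marker sums were 1801 to 2689 FPKM in long OVA and 225 to 922 FPKM in long PBS lungs. These sums include Chil3, which was the largest part of them in short OVA and short PBS lungs.

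The difference of the OVA effect between protocols (long minus short) had a median of -0.61 over the members, against 0.04 over all genes and -0.26 over the short genes; with the trend removed the members' median was -0.31. With all 22 libraries no member was called by limma, and 0.459% of genes were called higher and 1.42% lower; 52 members were lower and none higher at an unadjusted p under 0.05, against 8.48% and 6.73% of all genes (18.8% of the short genes lower), and Uqcrq had the smallest adjusted p, 0.0678. Without long MCh libraries a and c and short MCh library 1 the count was 6 of 92, near the 4.67% of all genes and 7.56% of the short genes called lower. Without those and short MCh library 4 it was 76, against 14.2% of all genes and 32.9% of the short genes. With the 14 OVA and PBS libraries alone 76 of 92 members were called, all with a smaller log2 value in the long protocol, against 13.5% of all genes and 32.1% of the short genes called lower. With the length trend removed as well it was 42 of 91 members, against 10.5% of all genes and 13.5% of the short genes. Under that last fit 11 of 44 members of complex I were lower, 3 of 4 of complex II, 6 of 8 of complex III, 8 of 18 of complex IV and 14 of 17 of complex V. With OVA and PBS libraries alone Uqcrq differed by -0.96 ± 0.11 (adjusted p = 2.57e-04), while Ndufa4l2 differed by 0.06 ± 0.22 (adjusted p = 0.859).

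PBS lungs of the long protocol, compared with those of the short, had no member called by limma, with 0.0191% of genes higher and 0.147% lower; 2 members were lower and none higher without adjustment, against 2.31% and 3.13% of all genes. The median was -0.15 (-0.08 with the trend removed), and in 21 members every long PBS library lay below every short one and in none above, against 9.16% and 18.9% of all genes.

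MCh gave no called member in either protocol with limma. In the short protocol 1 gene in the whole table was called (0.00638%, higher), 24 members were higher and none lower without adjustment, against 2.93% and 4.56% of all genes (7.92% of the short genes higher), and the members' median was 0.30 (0.15 with the trend removed). In short MCh library 4 the members' median deviation was 0.77, against 0.11, 0.06 and -0.15 in short MCh libraries 1, 2 and 3. Without library 4 and the 3 sparse libraries the median difference of the members was 0.08. Uqcrq shows the pattern, with 49.1, 48.7, 41.9 and 93.9 FPKM in short MCh libraries 1 to 4, against 35.6, 37.4 and 31.7 FPKM in short PBS libraries, a difference of 0.66 ± 0.19 (adjusted p = 0.411). With the trend removed the members' median deviation in short MCh library 4 was 0.25. Its macrophage markers, Chil3 among them, summed to 345 FPKM, against 237 to 288 FPKM in the other short MCh libraries. Alveolar type 2 markers summed to 24061 FPKM in library 4, against 14044 to 15267 FPKM in the others. In 3 members all short MCh libraries lay above and in 1 below all short PBS libraries, against 3.24% and 5.52% of all genes.

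In the long protocol 0.0574% of genes were called higher and 0.00638% lower in MCh against PBS lungs, and the members' median was -0.02, against -0.14 over all genes. Its sign depended on the processing: it was 0.09 with the trend removed, 0.11 with median-of-ratios scaling and 0.04 with quantile normalization, where all genes had medians of 0.00, -0.04 and 0.02. Atp5k, with the smallest adjusted p of the members, was at 2.28, 3.79, 2.05 and 4.14 FPKM in long MCh libraries a to d, against 5.05, 4.63 and 4.30 FPKM in long PBS libraries. All MCh values were below all PBS values, and the difference was -0.58 ± 0.22 (adjusted p = 0.242); it was the only member under an unadjusted p of 0.05, where 2.26% of all genes were higher and 14.0% lower. In 1 member all long MCh libraries lay above and in 1 below all long PBS libraries, against 2.6% and 10.5% of all genes.

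Levels of the members, which FPKM gives per length, ranged widely within a complex; Ndufv2 is named after its values were seen. In short PBS lungs the highest were Cox7a2l at 289 ± 18.7 FPKM and Cox4i1 at 254 ± 9.47 FPKM (SD, n = 3). In complex I the core subunit Ndufv2 was at 3.04 ± 0.398 FPKM and its partner Ndufv1 at 41.1 ± 2.60 FPKM; in complex V Atp5k was at 5.09 ± 0.807 FPKM and Atp5b at 217 ± 17.0 FPKM. How reads shared with processed pseudogenes or close copies were counted is not given in the sources used here, so levels of members with such copies, as Ndufb4 with Ndufb4c and Atp5g1 with its 2 sister genes, are uncertain. Exons of 30 members share bases with a gene on the other strand and those of 5 (Atp5g2, Atp5o, Ndufb2, Ndufb8 and Ndufb9) with one on the same strand, and whether counting used strand is not given either.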

How the data were processed

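Lung RNA from 22 mice was measured in 6 groups. Per the labels' protocols, RNeasy columns with DNase I gave the RNA, and TruSeq Stranded Total RNA reagents the libraries. The authors deposited FPKM values per gene and per transcript. The submitters' processing notes name the tools STAR, Trim Galore and DESeq2 and the genome build mm10; no version, role or annotation is stated there, nor which program gave the FPKM values. Titles and treatment text of the labels disagree on the days of short MCh and on sensitization of PBS and MCh mice, and the series design names trachea; the treatment text and the sample labels (lung) were followed. In the column names, Control was taken to mean PBS and Menth to mean MCh; 72h stands for the short and 1M for the long protocol. For 14 libraries the column gives the replicate number of the labels; the 8 long OVA and long MCh libraries carry a group but no usable number, so letters a to d name them. No pair of libraries was identical in all values.

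Members and lists were chosen with earlier results of these data known. Read counts were not used, so the 15682 genes that reached 0.1 FPKM in 3 or more libraries entered the test on log2(FPKM + 0.5), which understates folds of low genes. A model with a coefficient per group over all 22 libraries used limma 3.58.1 under R 4.3.3 (lmFit, contrasts.fit, eBayes with an intensity trend; two-sided tests) with Benjamini-Hochberg adjustment over all tested genes; a gene is called, and said to rise or fall, where that p is under 0.05. For 15473 tested genes the length of the most abundant transcript with a RefSeq match in GENCODE M21 was used to subtract a lowess trend of log2 deviations per library. Ratios were tested with exact permutation tests in SciPy 1.17.1. Core subunits here are the 7 nuclear-encoded subunits of complex I with bacterial counterparts, the 4 of complex II, Uqcrfs1 and the 5 subunits of the F1 head; every other structural subunit is called accessory. Named are 28 key members, the 2 with the smallest p in each direction in each complex, and members called where 6 or fewer were; others are marked as chosen after their values were seen or stand for a count. Of the key members 1 is not reported here. The steps were tested on simulated data. Alternatives were other pseudocounts, filters, scalings, transcript sums, array weights, the contrast's groups alone, a replicate block, removal of the length trend and leaving out libraries; trend removal with the contrast's groups alone, trend removal with the median length of coding models, and leaving out 4 libraries together were added after seeing the data.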

Additional observations from a re-analysis of the deposited data

Results flagged for a closer look

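Single libraries stood apart from the other 3 of their group in 18 of 148 groups of values examined. For independent groups of normally distributed values chance gives about 1 in 20. The groups here share libraries, so their count cannot be tested against that rate. In short MCh library 4 this held for 8 members, each higher than in the other 3: Atp5b at 254 FPKM (others 208 to 215), Cox4i1 at 425 FPKM (others 234 to 260.4), Cox6a1 at 504 FPKM (others 231 to 250.4), Cox7a2l at 533 FPKM (others 245 to 261), Cox8a at 582 FPKM (others 219 to 253), Sdhc at 9.11 FPKM (others 6.72 to 6.92), Sdhd at 15.9 FPKM (others 8.57 to 9.61) and Uqcrq at 93.9 FPKM (others 41.9 to 49.1). That library also had the steepest trend with length.

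Short OVA library 1 was the highest of its group for Atp5a1 at 216 FPKM (others 192 to 193), Cox7b at 374 FPKM (others 296 to 307) and Uqcrh at 311 FPKM (others 244 to 248). Its median log2 deviation over all members was 0.76, against 0.50 to 0.54 in the others. Cox4i2 as a share of Cox4i1 was 14.0% in short OVA library 2 (others 11.6% to 11.9%) and 13.8% in short MCh library 1 (others 23.3% to 25.0%). Long OVA library c was low for Cox7a2l at 175 FPKM (others 207 to 209.8), and long OVA library b for Ndufs1 at 74.0 FPKM (others 87.3 to 88.5). Long MCh library a, 1 of the 2 long MCh libraries with many genes at 0, was high for Cox7a2l at 291 FPKM (others 215 to 219) and Uqcrh at 129 FPKM (others 107 to 110.1).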

How the results depend on the processing

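The 65 members called in short OVA against PBS lungs were 38 with the length trend removed, 39 to 61 when single libraries were left out, 53 with a replicate block, 62 to 67 with other pseudocounts, filters, scalings or transcript sums, and 54 with the trend removed by median coding lengths. They were 75 without the 3 sparse libraries, 80 with the contrast's groups alone and 82 with array weights. Without the sparse libraries and short MCh library 4 the count was 83. Calls over all genes grew in these fits, from 12.4% higher and 11.7% lower as deposited with all libraries. The shares were 20.4% and 22.6% without the sparse libraries, and 21.7% and 26.6% with the contrast's groups alone. They were 23.4% and 27.5% with array weights, and 24.0% and 30.0% without the sparse libraries and short MCh library 4. With the contrast's groups alone and the trend removed the members called were 62, where 22.5% of all genes rose and 20.4% fell. Whether replicate numbers pair the libraries is not known. Correlations of same-numbered deviations were -0.03, -0.27 and -0.12 between short OVA and short PBS. Between short MCh and short PBS they were -0.26, -0.11 and 0.36. So few libraries cannot decide it, and the block value is given here alone. Where no member was called, other settings gave some. In long OVA against PBS lungs it was 8 with array weights (5.43% of members higher and 3.26% lower, against 6.87% and 6.18% of genes), 3, all lower, without the 3 sparse libraries and short MCh library 4 (3.26%, against 3.25% of genes), 3 with the contrast's groups alone and 2 with those groups and the trend removed. For the difference of the OVA effect between protocols it was 74 with array weights (80.4% lower, against 15.1% of genes and 33.2% of short genes), 6 without the 3 sparse libraries, 76 without those and short MCh library 4, 76 with the contrast's groups alone and 42 with the trend removed too. In long against short PBS lungs it was 5, all lower, with array weights (5.43%, against 3.49% of genes and 5.65% of short genes) and 4, all lower, without those 4 libraries (4.35%, against 2.51% and 4.33%). In short MCh lungs it was 1, higher, with array weights (1.09%, against 1.05% of genes). Leaving out single libraries left these comparisons at 0 called members. The cause was not tested. Small values changed sign in short OVA against PBS lungs: Cox7a1 was 0.0397 and Cox8b 0.0245 with the block, and without single libraries they ran from -0.332 to 0.0807 and from -0.311 to 0.130. Cox7a2l was -0.0585 and Uqcrc1 -0.0118 with the trend removed, in the contrast's groups alone too, and Uqcrc1 was -0.0690 with median coding lengths. FPKM carry no counts, so counting intervals are not given, and members near 0 are the least certain.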
